A study of Mus musculus with 10 samples.

Results

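The Bcl2 family and its partners decide whether a stressed cell lives or dies, and 10 of these genes were followed in subcutaneous islet grafts of mice: Bcl2, Bcl2l1, Mcl1, Bax, Bak1, Bid, Bcl2l11, Casp8, Cflar and Birc3. They were taken from a list of pro- and anti-apoptotic genes, and each was read through every probe set that carried its symbol alone. Probe sets were found for 9 of the 10 genes, 33 in all, out of 18193 genes and 45101 probe sets on the array. Bax was not analysed here.

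Grafts were made of rat islets in a plasma-based scaffold without other cells (PSI) or with cultured skin fibroblasts of nu/nu mice (PSI-F), and were placed under the skin of 6-week-old male Swiss nu/nu mice, which lack mature T cells and had been made diabetic with streptozotocin. Grafts were removed on days 1, 3, 7 and 10, and subcutaneous biopsies of non-transplanted healthy mice (Control) and of non-transplanted streptozotocin-diabetic mice (Diabetic) stood for day 0. Each of these 10 conditions had 1 array, and how many mice an array stands for is not stated in the study's methods or labels. The study took grafts of more than 1 mouse per kind and day, and chose samples of the best quality for the arrays. No graft mouse was healthy, no biopsy carried a scaffold, and the sampled tissue held recipient tissue beside the graft. The probes are of mouse sequence, so rat islet transcripts were seen only where they bound them.

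In the mitochondrial pathway of apoptosis, the guardian proteins Bcl-2, Bcl-xL (gene Bcl2l1) and Mcl-1 hold the pore-forming effectors Bax and Bak in check. BH3-only proteins such as Bim (gene Bcl2l11) and Bid are set free by stress, block the guardians and switch on the effectors, after which cytochrome c leaks out and caspases are activated. Death receptors act from the cell surface through caspase-8, which c-FLIP (gene Cflar) restrains and which cuts Bid to join both arms. cIAP2 (gene Birc3) is an inhibitor of apoptosis protein and an NF-kB target that sustains survival signalling below the TNF receptor. Islet cells are lost to apoptosis in the first days after transplantation, and the neutrophils and macrophages that enter a graft carry the same machinery.

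The upstream sequence is shown for Bak1, whose transcript passed the test against the biopsies, and for the members of the family in which a searched motif was found. Each holds the 250 bases before an annotated start in RefSeq (build GRCm38.p6), written 5′ to 3′ in the direction of the gene: Bak1 at chr17:27028628-27028877 on the minus strand, Bcl2l11 at chr2:128125788-128126037 on the plus strand and Bcl2l1 at chr2:152830718-152830967 on the minus strand. Capitals mark a match to the FoxO motif GTAAACA in Bcl2l11 and to the NF-kB consensus in Bcl2l1.
Bak1: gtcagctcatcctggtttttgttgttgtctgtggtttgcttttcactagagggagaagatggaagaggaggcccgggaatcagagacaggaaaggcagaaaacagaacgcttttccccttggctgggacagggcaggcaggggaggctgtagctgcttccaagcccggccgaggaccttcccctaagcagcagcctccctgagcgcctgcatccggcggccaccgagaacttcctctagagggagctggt
Bcl2l11: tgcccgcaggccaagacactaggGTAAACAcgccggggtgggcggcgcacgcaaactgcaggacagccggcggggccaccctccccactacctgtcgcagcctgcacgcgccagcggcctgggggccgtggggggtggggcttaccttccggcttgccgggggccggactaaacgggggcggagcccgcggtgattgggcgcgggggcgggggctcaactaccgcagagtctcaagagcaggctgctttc
Bcl2l1: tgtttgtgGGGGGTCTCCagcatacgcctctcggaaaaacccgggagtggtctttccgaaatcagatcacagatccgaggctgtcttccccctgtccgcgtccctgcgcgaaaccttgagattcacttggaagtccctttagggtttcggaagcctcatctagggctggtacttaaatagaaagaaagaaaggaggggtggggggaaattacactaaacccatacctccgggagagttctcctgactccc
Both strands of 13 upstream regions of the listed genes were searched for GTAAACA, for the AP-1 motif TGANTCA and for the NF-kB consensus. The FoxO motif was found in 1 of the 13, at -227 to -221 of Bcl2l11, and in 3.17% of 32851 mouse promoters of the same length. The NF-kB consensus was found in 1 of the 13, at -242 to -233 of Bcl2l1, and in 7.25% of all promoters. The AP-1 motif was found in 0 of the 13 and in 6.75% of all promoters. These are matches of letters, and binding was not measured.

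The levels below are log2 values (RMA) of the brightest probe set of each gene, where a difference of 1 is 2-fold, and levels of different genes were not compared since they come from different probes. Medians of the arrays lay between 2.82 and 2.94. With 1 array per condition, neighbouring levels of a gene have no replicate spread to be judged by, so conditions were pooled for tests, with days or biopsies standing in as replicates, and a p-value then measures the spread between conditions. The Diabetic array stood apart, with 41 probe sets at least 4-fold below and 55 at least 4-fold above every other array, against 0 to 2 and 0 to 5 on each of the others. Poly-A spike-in controls differed between periods, since 12 of 24 were brighter on all arrays of days 7 and 10 than on any other array, and none was dimmer. Levels of a set of marker genes were added on the linear scale, and the log2 of the sum is given. The brightest genes of a set thus weigh most. For 12 skeletal muscle genes this log2 sum was 15 to 15.56 in the biopsies and 14.83 to 15.5 in the grafts. For 10 islet genes it was 5.47 to 5.75 in the biopsies and 8.01 to 10.69 in the grafts. In the grafts Ins2 alone was at 7.70 to 10.60, and 5 of the 10 (Gcg, Pcsk1, Pdx1, Nkx6-1 and Slc30a8) lay below the array medians.

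**Figure D1:**
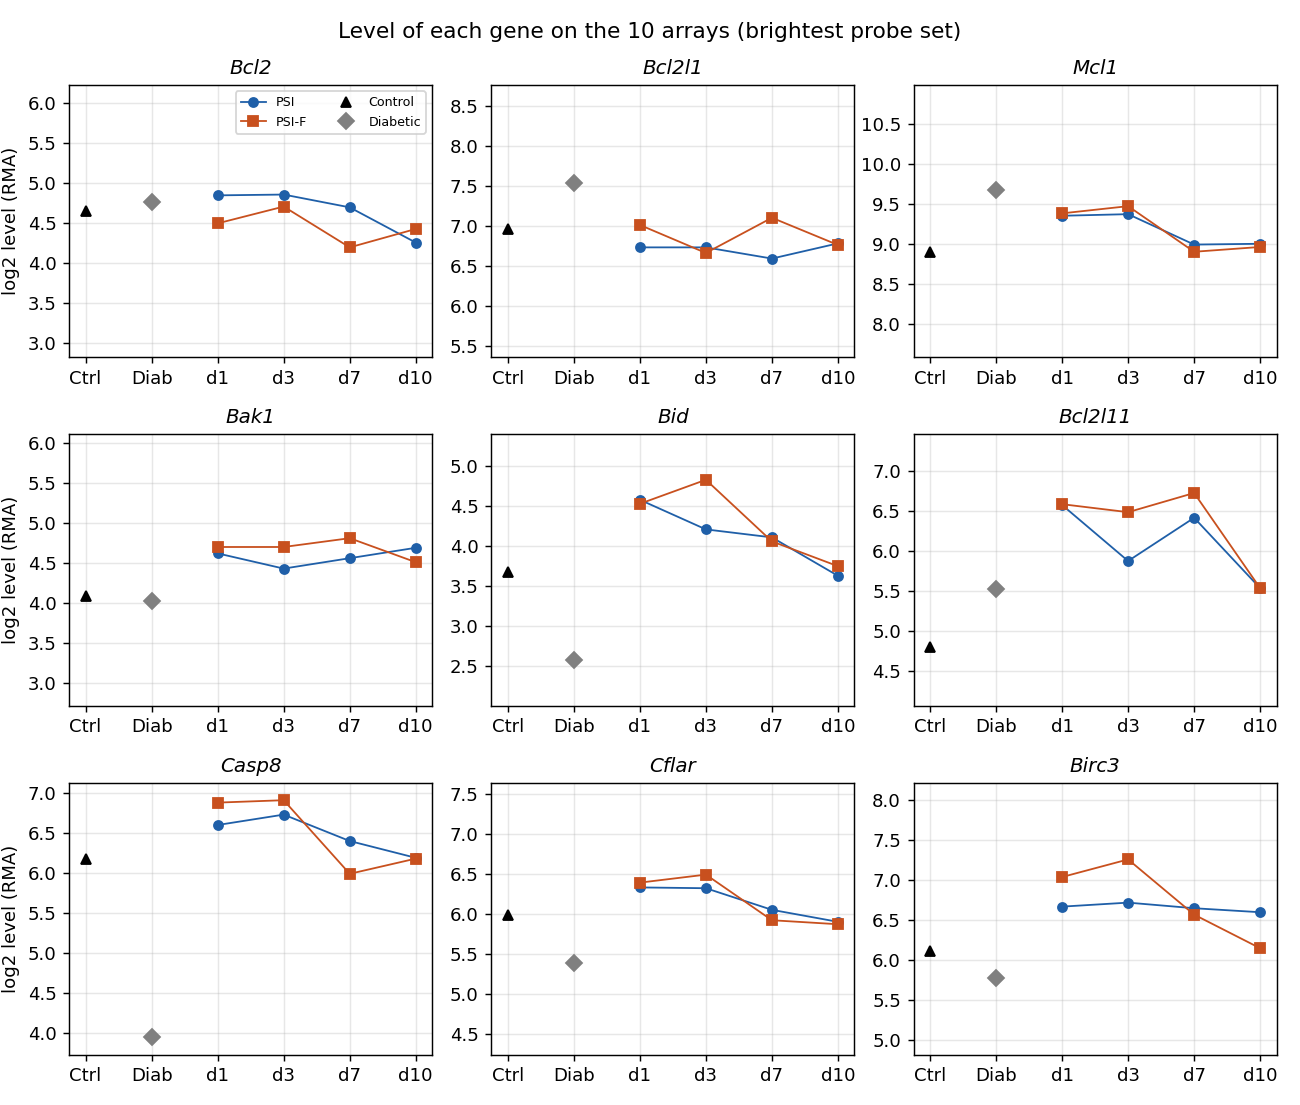
Log2 level of the 9 genes on the 10 arrays, with 1 panel per gene and an axis of the same length in each. Triangles and diamonds are the Control and Diabetic biopsies, and circles are PSI grafts and squares PSI-F grafts on each day, with 1 array per point. Casp8 is lowest on the Diabetic array, at 3.95, and Bak1 lies above both biopsies in all 8 grafts.

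The first comparison asked how transplanted tissue differed from non-transplanted tissue. Among the 9 genes Bak1 passed the test, with a higher level in the grafts. By their brightest probe sets, the BH3-only genes, Casp8, Cflar and Birc3 had higher means in the grafts as well, short of the threshold, and no guardian did. Bak1, a pore-forming effector of the outer mitochondrial membrane, had log2 levels of 4.09 in Control and 4.02 in Diabetic, 4.62, 4.43, 4.56 and 4.69 in PSI grafts of days 1, 3, 7 and 10, and 4.70, 4.70, 4.81 and 4.51 in the PSI-F grafts. All 8 grafts lay above both biopsies, in a narrow band with no trend over days. Bak1 rose by 0.57 ± 0.11 (SE, 8 grafts against 2 biopsies), or 1.49-fold (limma, adjusted p = 0.0314). It was the only call among the 33 probe sets, where 2.16% of all 45037 probe sets were called, 1.49% higher and 0.675% lower. The second Bak1 probe set, dim at a mean level of 1.68, differed by 0.14 ± 0.16. The call was lost with a mean-variance trend in limma (adjusted p = 0.0712), with the mean of both probe sets (0.36, adjusted p = 0.121), with grafts of days 1 and 3 alone (0.56, adjusted p = 0.0996) and without Diabetic (0.54, adjusted p = 0.204). It was also lost without PSI day 1, PSI-F day 1, PSI-F day 3 or PSI day 7 (0.56 to 0.58, adjusted p = 0.0507 to 0.0526).

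Bcl2l11 and Bid encode the BH3-only proteins Bim and Bid. Bcl2l11 had log2 levels of 4.80 in Control and 5.52 in Diabetic, 6.57, 5.87, 6.41 and 5.53 in PSI on days 1, 3, 7 and 10, and 6.58, 6.48, 6.72 and 5.53 in PSI-F. The grafts of days 1 to 7 lay clearly above the biopsies, whereas both grafts of day 10 were level with Diabetic. The difference was 1.05 ± 0.34, or 2.07-fold, with an adjusted p of 0.136 (limma). The other 4 Bcl2l11 probe sets were higher in the grafts as well, by 0.41 to 0.88, with adjusted p from 0.0786 to 0.526. Bid had log2 levels of 3.68 in Control and 2.58 in Diabetic, 4.58, 4.21, 4.11 and 3.63 in PSI, and 4.53, 4.83, 4.06 and 3.75 in PSI-F. The grafts of days 1, 3 and 7 lay above both biopsies, and those of day 10 stood beside Control. The difference of 1.08 ± 0.33 (limma, adjusted p = 0.117) came in part from the Diabetic array, without which it was 0.53 and without Control 1.63. The Diabetic level of Bid lay below that array's median of 2.82, near background, so that differences from it are uncertain in size.

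Casp8, the initiator caspase of the death receptors, depended most on the Diabetic array. Its only probe set had log2 levels of 6.17 in Control and 3.95 in Diabetic, 6.60, 6.73, 6.40 and 6.19 in PSI, and 6.88, 6.91, 5.99 and 6.18 in PSI-F. The Diabetic array was more than 4-fold below each of the others, as were 0.091% of all probe sets, and Control lay within the range of the grafts. The difference of 1.43 ± 0.44 (limma, adjusted p = 0.119) became 2.53 without Control and 0.32 without Diabetic, each with 1 biopsy left. Casp8 and Bid were the only 2 of the 9 genes at least 2-fold lower in Diabetic than in Control, with log2 differences of -2.21 and -1.10, as were 5.56% of all probe sets. The log2 difference of 3′ to 5′ control probes, a sign of RNA quality, was 0.25 for Gapdh in Diabetic (-0.01 to 0.29 on the other arrays) and 0.33 for actin (0.45 to 0.76 on the other arrays). The part of RNA quality in the Casp8 and Bid levels was not tested.

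Cflar encodes c-FLIP, the inhibitor of caspase-8. Its brightest probe set had log2 levels of 5.98 in Control and 5.39 in Diabetic, 6.33, 6.32, 6.05 and 5.90 in PSI, and 6.39, 6.49, 5.92 and 5.87 in PSI-F. The grafts of days 1 and 3 were above both biopsies and those of day 10 were just below Control, so that the groups overlapped. The difference was 0.47 ± 0.20 (limma, adjusted p = 0.26), or 0.17 without Diabetic. A second Cflar probe set ran the other way, with 5.28 in Control, 5.20 in Diabetic and 4.17 to 4.99 in the grafts. It lay below both biopsies in all 8 grafts, with a difference of -0.72 ± 0.19 (limma, adjusted p = 0.083). Probe sets can read different transcripts of a gene, and which ones these read was not tested.

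Birc3 had log2 levels of 6.12 in Control and 5.78 in Diabetic, 6.67, 6.72, 6.65 and 6.60 in PSI, and 7.04, 7.26, 6.57 and 6.15 in PSI-F. All 8 grafts were above both biopsies, the PSI-F graft of day 10 by the least. The difference was 0.76 ± 0.23, or 1.69-fold (limma, adjusted p = 0.116). The second probe set, at levels near the array medians, was also above both biopsies in every graft, with 2.66 and 2.84 in the biopsies, 2.94 to 3.40 in the grafts and a difference of 0.40 ± 0.14.

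None of the 3 guardians was higher in the grafts by its brightest probe set. Bcl2l1, the gene of Bcl-xL, had log2 levels of 6.96 in Control and 7.53 in Diabetic, 6.73, 6.73, 6.59 and 6.78 in PSI, and 7.01, 6.66, 7.10 and 6.76 in PSI-F. Diabetic was above all grafts, and Control lay among them. The difference was -0.45 ± 0.17 (limma, adjusted p = 0.182). Against Diabetic alone it was -0.73 and against Control alone -0.17, each with 1 biopsy. Mcl1, whose protein is turned over quickly, had 8.90 in Control and 9.67 in Diabetic, 9.35, 9.37, 8.99 and 9.0 in PSI, and 9.38, 9.47, 8.90 and 8.96 in PSI-F. The grafts lay within the range of the biopsies, with a difference of -0.11 ± 0.21 that turned to 0.27 without Diabetic. Bcl2, the founding member of the family, had 4.64 in Control and 4.76 in Diabetic, 4.84, 4.85, 4.69 and 4.25 in PSI, and 4.49, 4.70, 4.19 and 4.42 in PSI-F. Its groups overlapped, with a difference of -0.15 ± 0.18.

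Over the brightest probe sets of the 9 genes, 6 differences were positive and 3, those of the guardians, were negative. Their median was 0.57 against -0.02 for all probe sets. Levels of 3 genes (Bak1, Bcl2l11 and Birc3) and of 7 of the 33 probe sets were above both biopsies in every graft, where 6.5% of all probe sets were. The margin was narrow for Bcl2l11 (5.53 on day 10 against 5.52 in Diabetic) and for Birc3 (6.15 in PSI-F on day 10 against 6.12 in Control). Among the 7, Cflar 1425687_at lay below the array median on all 10 arrays and Bcl2l11 1435449_at on 8. The 4 grafts of days 1 and 3 and the 4 of days 7 and 10 differed in their spike-in controls. With the late period as a block, only the grafts of days 1 and 3 were set against the biopsies. The late grafts then added to the estimate of spread alone. Bid (1.41), Cflar (0.69), Birc3 (0.97) and Bak1 (0.56) were past the threshold in that fit (limma, adjusted p = 0.0253 to 0.0442). Without the late grafts the same differences were short of it (limma, adjusted p = 0.0763 to 0.121). Markers of macrophages moved with these genes. Their log2 sum was 9.48 to 9.62 in the biopsies and 11.82 to 13.10 in the grafts. All 12 were above the array median on at least 1 array, and 8 of the 12 were called higher. Neutrophil markers summed to 7.83 to 8.86 in the biopsies and 7.84 to 11.66 in the grafts (0 of 10 called), and T and NK cell markers to 5.41 to 5.47 and 5.55 to 7.06 (0 of 10 called). Fibroblast and matrix markers summed to 12.29 to 12.54 and 12.89 to 14.45 (1 of 11 called higher, Col3a1). Hair follicle markers summed to 12.30 to 13.09 and 6.38 to 12.85, with 11 of 11 differences negative, a median of -2.56 and 0 called. Their part in the result was not tested, and in such bulk tissue, more cells of a type and more RNA per cell cannot be told apart.

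**Figure D2:**
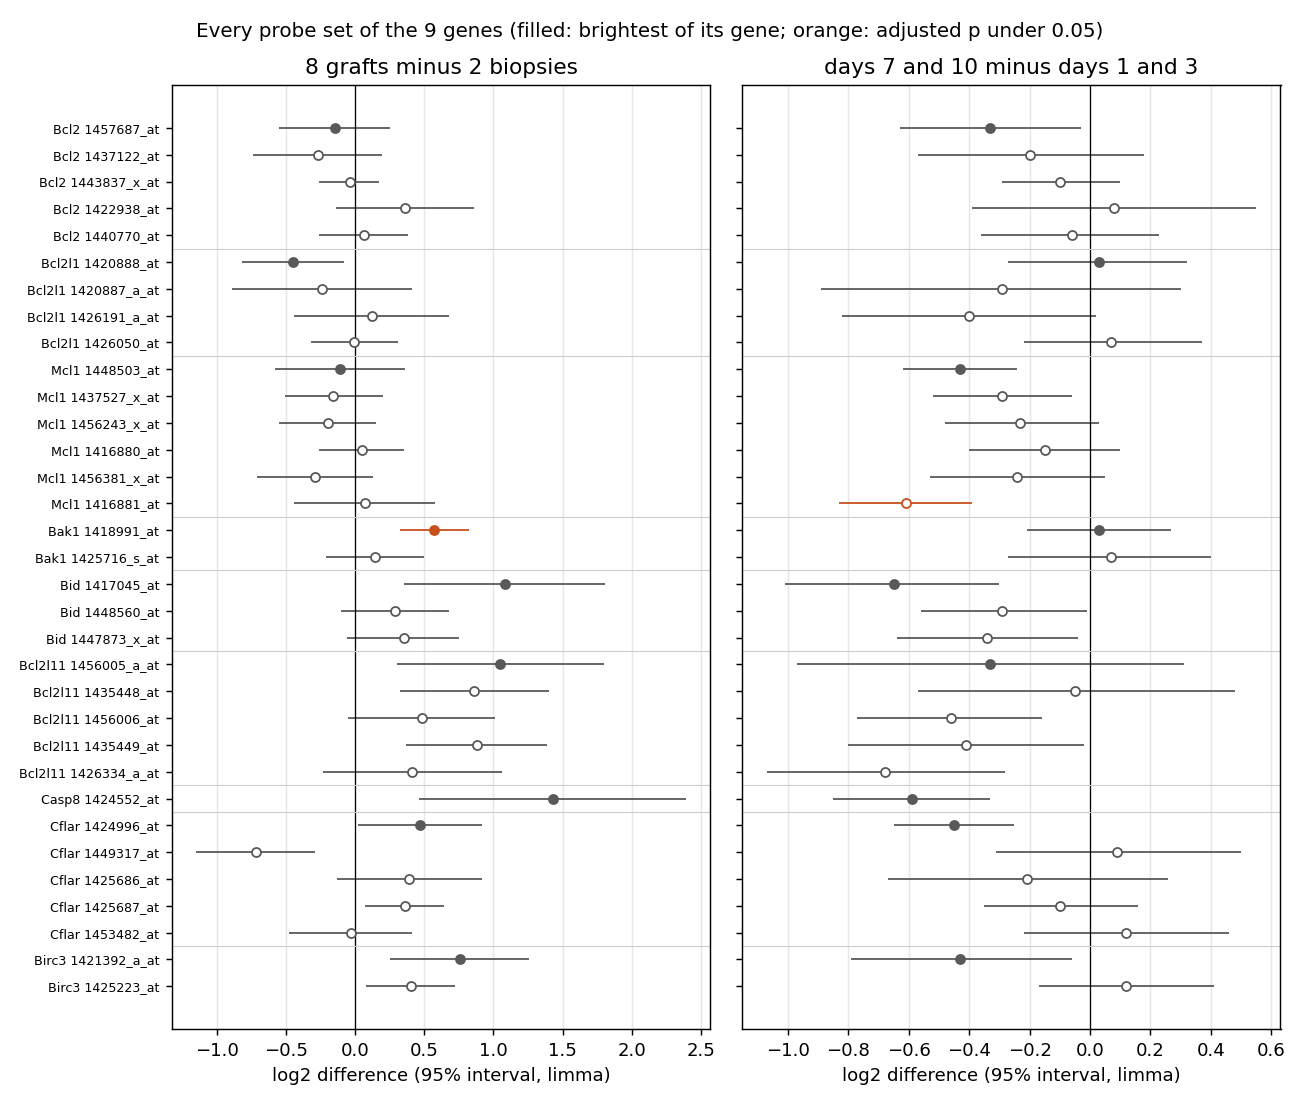
Log2 difference with its 95% interval (limma) for each of the 33 probe sets, for 8 grafts minus 2 biopsies on the left and for days 7 and 10 minus days 1 and 3 on the right. Filled points are the brightest probe set of a gene and orange marks an adjusted p under 0.05, which Bak1 reached on the left, at 0.57, and the least bright Mcl1 probe set on the right, at -0.61.

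The second comparison followed the grafts over time, 4 of days 7 and 10 against 4 of days 1 and 3. Most of the genes were lower late than early, and none of the 9 brightest probe sets passed the test, with Mcl1, Casp8 and Cflar just outside it. Mcl1 lay between 9.35 and 9.47 on days 1 and 3 and between 8.90 and 9.0 on days 7 and 10. The periods did not overlap, and the spread within each was small beside the step of -0.43 ± 0.08 (limma, adjusted p = 0.0504). Mcl1 was read by 6 probe sets, all lower late, by differences of -0.61 to -0.15. The least bright of them, 1416881_at, fell by 0.61 ± 0.10 (limma, adjusted p = 0.0306). In PSI it had 7.66, 7.51, 7.09 and 7.15 on days 1, 3, 7 and 10, and in PSI-F it had 7.78, 7.72, 6.95 and 7.04, beside 7.17 in Control and 7.41 in Diabetic. It was the only call among the 33 probe sets, where 0.904% of all probe sets were called, 0.14% higher and 0.764% lower. The call held without PSI day 3 and was lost without any other single graft (-0.64 to -0.57, adjusted p = 0.0519 to 0.0982) and with the kind of graft as a covariate (adjusted p = 0.0552).

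Casp8 and Cflar, the death receptor pair, had like steps. Casp8 was at 6.60 to 6.91 early and at 5.99 to 6.40 late, a difference of -0.59 ± 0.12 (limma, adjusted p = 0.0536). Cflar was at 6.32 to 6.49 early and at 5.87 to 6.05 late, a difference of -0.45 ± 0.09 (limma, adjusted p = 0.0554). The other 4 Cflar probe sets differed by -0.21 to 0.12 and had no such step. When probe sets with a mean level under 4 were left out, which lowers the number of tests, Mcl1, Casp8 and Cflar were past the threshold (adjusted p = 0.0414 to 0.0449). Bid was lower by a similar amount, at 4.21 to 4.83 early and 3.63 to 4.11 late (-0.65 ± 0.16, limma, adjusted p = 0.0908), and its other probe sets by -0.34 and -0.29.

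Birc3 was at 6.67 to 7.26 early and 6.15 to 6.65 late, a difference of -0.43 ± 0.16 (limma, adjusted p = 0.254), but its second probe set differed by 0.12. Bcl2l11 did not follow the split between periods. Both of its grafts of day 7 were about as high as those of day 1, and both of day 10 were about 1 lower, so that the difference was -0.33 ± 0.29. Bcl2 had -0.33 ± 0.14 with overlapping periods. Bak1 and Bcl2l1 were level, at 0.03 ± 0.11 and 0.03 ± 0.13, with 95% intervals of -0.21 to 0.27 and -0.27 to 0.32.

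Levels of 5 of the 9 genes (Mcl1, Casp8, Cflar, Birc3 and Bid), and of 8 of the 33 probe sets, were lower in every late graft than in any early one, where 6.17% of all probe sets were. The median of the 9 differences was -0.43 against 0.01 for all probe sets. Neutrophil markers moved the same way, with a log2 sum of 9.98 to 11.66 early and 7.84 to 8.95 late. Of these, 8 of 10 differences were negative, with a median of -0.76, and 3 of 10 were called lower. Macrophage markers summed to 12.12 to 13.10 early and 11.82 to 12.57 late, sums in which the brightest weigh most. Their differences were negative in 12 of 12, with a median of -0.74 (1 of 12 called lower, Itgam). Hair follicle markers summed to 6.38 to 11.66 early and 9.03 to 12.85 late (11 of 11 positive, 0 called). Fibroblast and matrix markers summed to 12.89 to 14.13 early and 14.02 to 14.45 late (9 of 11 differences positive, 0 called), and T and NK cell markers to 5.55 to 6.97 and 5.98 to 7.06 (10 of 10 positive, 0 called). The part of these cells, and of whatever set the spike-in controls of days 7 and 10 apart, was not tested.

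The third comparison, the one the grafts were made for, asked what the added fibroblasts changed. No gene of the family passed the test between PSI-F and PSI. With the day as a block, 0 of the 33 probe sets and 0% of all 45037 were called (limma, smallest adjusted p = 0.751), and 2749 of all had an unadjusted p under 0.05. The differences of the 9 genes lay between -0.20 (Bcl2) and 0.23 (Bcl2l11), with a median of 0.09 against 0.00 for all. For Bcl2 the probe sets disagreed in sign. The brightest had -0.20 ± 0.13 and the mean of all 5 had -0.06, whereas 1422938_at was higher in PSI-F on every day, by 0.46, 0.11, 0.03 and 0.28 on days 1, 3, 7 and 10, with a difference of 0.22 ± 0.11 (limma, adjusted p = 0.751). Their 95% intervals ran from -0.50 to 0.09 for Bcl2, from -0.07 to 0.53 for Bcl2l11, from -0.22 to 0.22 for Mcl1 and from -0.29 to 0.32 for Casp8. None of the 9 intervals, each of a brightest probe set, reached beyond -0.50 or 0.53, so that a change of 2-fold, averaged over days, lay outside each of them. The width of these intervals came from how the difference varied between days, with 1 array per kind and day. Spread between mice of the same kind and day was not measured.

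Within a day the values have no replicate check. None of the 9 genes was 2-fold apart on any day, where 0.853%, 1.87%, 1.37% and 0.555% of all probe sets were on days 1, 3, 7 and 10. PSI-F was higher in 7 of the 9 genes on day 1 and in 7 on day 3, but in 3 on day 7 and in 2 on day 10, with medians of 0.06, 0.19, -0.08 and -0.02. Day 3 held the widest differences in this direction, with 0.62 for Bid, 0.61 for Bcl2l11 and 0.54 for Birc3, and day 7 those of both signs, with 0.51 for Bcl2l1, -0.40 for Casp8 and -0.50 for Bcl2. On day 3 the log2 sum of neutrophil markers was 9.98 in PSI and 11.23 in PSI-F. That of macrophage markers was 12.54 and 13.10, and that of hair follicle markers 11.66 and 6.38. The part of these cells in the differences was not tested. Birc3 was higher in PSI-F early (0.37 and 0.54) and lower late (-0.08 and -0.46), a change of -0.73 ± 0.25 between periods with an unadjusted p of 0.0227 and an adjusted p of 1 (limma, interaction of kind of graft and period). Its 95% interval ran from -1.32 to -0.13. In that test 0 of the 33 probe sets and 0% of all were called, and 636 of all had an unadjusted p under 0.05. With 2 grafts of each kind in each period, this test had too little power for a count of 0 to speak to whether the kinds differed between periods.

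**Figure D3:**
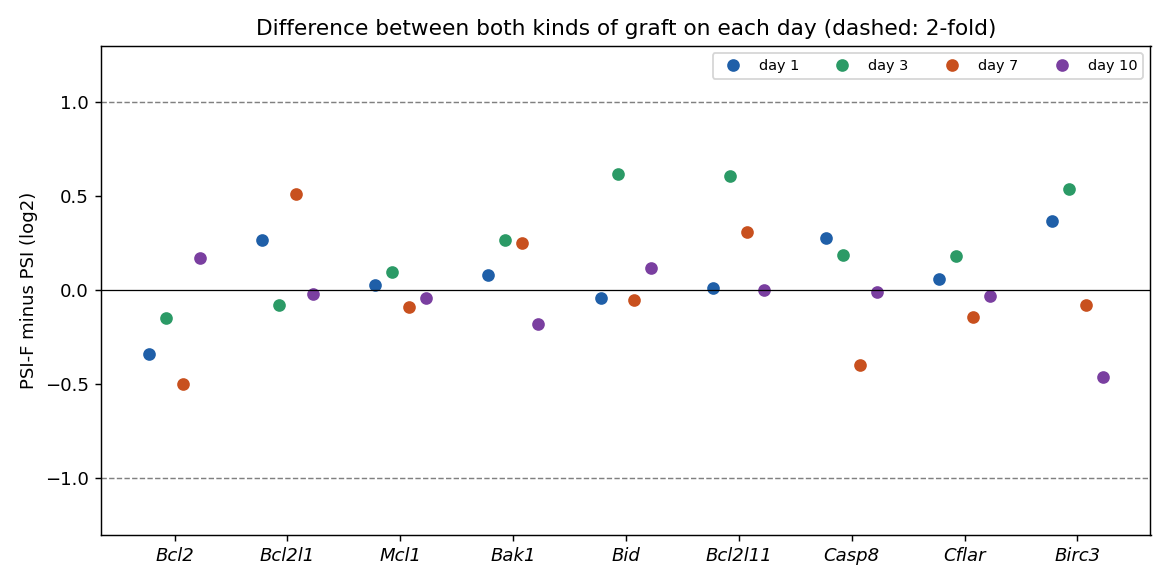
Log2 level in PSI-F less that in PSI for the 9 genes on each of the 4 days, with 1 point per gene and day, each from 1 array of either kind. Dashed lines mark 2-fold, which no point reaches, and the widest values are 0.62 for Bid on day 3 and -0.50 for Bcl2 on day 7.

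A pair of probe sets outside the brightest ones is described here for differences between kinds of graft, both chosen after their values were seen. The Bcl2l1 probe set 1420887_a_at was at 3.32 in PSI and 4.48 in PSI-F on day 7 and at 4.34 to 4.80 in the other 6 grafts, a difference of 1.16 on that day and the only one among the 33 probe sets of 2-fold or more on any day. The brightest Bcl2l1 probe set differed in the same direction by 0.51 on day 7. The Birc3 probe set 1425223_at was higher in PSI-F on every day, with 2.94, 2.97, 3.06 and 3.02 in PSI and 3.21, 3.26, 3.40 and 3.38 in PSI-F. These levels were near the array medians, and the difference of 0.31 ± 0.09 had an adjusted p of 0.751 (limma). This direction on every day was not particular to it. Bcl2 1422938_at had it too, as did Bcl2l11 1435449_at, by 0.23, 0.46, 0.32 and 0.11 on days 1, 3, 7 and 10. The brightest Birc3 probe set was higher in PSI-F on days 1 and 3 (0.37 and 0.54) but lower on days 7 and 10 (-0.08 and -0.46).

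Probe sets of a gene differed in how far they moved together. Over the 10 arrays, which both probe sets of a pair share, Pearson's r with the brightest one was 0.61 to 0.83 for the other 5 of Mcl1, 0.58 to 0.87 for the other 4 of Bcl2l11, and 0.65 and 0.82 for the other 2 of Bid. It was 0.39 for Bak1 and 0.43 for Birc3. For Bcl2 it was 0.84 with 2 probe sets, 0.01 and -0.33 with the others, for Bcl2l1 it ran from -0.23 to 0.45, and for Cflar from -0.57 to 0.46. These are descriptions of 10 arrays of different conditions and carry no test. By r the patterns of Mcl1, Bcl2l11 and Bid were shared most among their probe sets, and that of Bcl2 by 3 of 5. Details differed, since early and late grafts overlapped in the Mcl1 probe sets 1416880_at, 1456243_x_at and 1456381_x_at. The other 2 probe sets of Bid and 1426334_a_at of Bcl2l11 lay below the array median on all 10 arrays, near background. Patterns of Bcl2l1 and Cflar were shared less, and that of Casp8, with 1 probe set, could not be checked.

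The genes that varied most over the arrays were Casp8 by 2.96, Bid by 2.26 and Bcl2l11 by 1.91 between the lowest and the highest log2 level. After each gene was centred on its own mean, the genes nearest to Casp8 among 18192 were Zdhhc24, Dzip3 and Rab32, with root mean square differences of 0.20, 0.21 and 0.22. They share the low Diabetic value, with 1.65, 1.77 and 3.94 in Diabetic against 3.99, 3.80 and 5.79 in Control. A shared pattern follows from this choice by distance. The Diabetic levels of Zdhhc24 and Dzip3 lay below that array's median of 2.82, near background. Nearest to Bid were Vwa5a, Nipsnap3b and Rab29 (0.10, 0.13 and 0.13), which were also lowest in Diabetic. Nearest to Bcl2l11 were Lrp11, Anxa6 and Itgb1 (0.19, 0.20 and 0.22), lowest in Control and, in the grafts, at 2.72 to 3.87, 7.32 to 8.16 and 7.03 to 8.18.

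Other genes of cell death pathways were read from a list of 71, of which 61 were matched to a probe set. In grafts against biopsies 5 of the 61 were called higher and 1 lower, beside 1.49% and 0.675% of all probe sets. The median difference was 0.14 against -0.02 for all probe sets. Among 12 death receptor genes (11 positive differences), Tnfrsf1b, the second TNF receptor, had 3.58 and 2.66 in Control and Diabetic and 4.88 to 6.36 in the grafts, a rise of 2.44 (limma, adjusted p = 0.0132). Its Diabetic level was below the array median, near background, so that the size of the rise is uncertain. With the mean of its 2 probe sets the rise was 1.42 (limma, adjusted p = 0.0228). Tnfsf10, the death ligand TRAIL, had 3.01 and 2.50 in the biopsies and 3.41 to 4.23 in the grafts, a rise of 1.02 (limma, adjusted p = 0.0413). Here too Diabetic was below the array median and Control close to it, which limits the size in the same way. Gsdmd, whose cleaved product forms the pores of pyroptosis, had 4.30 and 3.76 in the biopsies and 5.33 to 6.18 in the grafts, a rise of 1.75 (limma, adjusted p = 0.0054). None of these overlapped between grafts and biopsies, where 6.5% of all probe sets lay above both biopsies in every graft.

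Naip5, a sensor of bacterial flagellin from the IAP family, rose by 2.0 (limma, adjusted p = 0.022), from 1.7 and 1.63, below the array medians, to 2.76 to 4.54. Both biopsy levels were thus near background, and the size of this rise is uncertain. Its probe set may read near-identical Naip copies. Htra2, a mitochondrial protease that counters IAP proteins, rose by 1.07 (limma, adjusted p = 0.0264), from 4.43 and 3.84 to 4.92 to 5.72. Pmaip1, the gene of the BH3-only protein Noxa, went the other way from Bid and Bcl2l11. It had 5.73 in both biopsies and 4.17 to 5.08 in the grafts, and fell by 1.05 (limma, adjusted p = 0.0384). Without Diabetic all 6 calls were lost, with differences of 1.98 for Tnfrsf1b, 0.77 for Tnfsf10, 1.48 for Gsdmd, 1.97 for Naip5, 0.78 for Htra2 and -1.05 for Pmaip1 (adjusted p = 0.0968 to 0.304). The calls of Pmaip1 and Tnfsf10 were also lost without several single grafts and with days 7 and 10 as a block (adjusted p = 0.0545 and 0.054), and Htra2 without PSI day 3 (adjusted p = 0.0511). The 7 genes around p53, 7 around NF-kB and the 2 other guardians gave no call.

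Late against early, 47 of the 61 differences were negative (median -0.13). Of the 61, 0 were called higher and 2 lower, beside 0.14% and 0.764% of all probe sets. Ripk3, the kinase of necroptosis, was at 5.84 to 6.16 on days 1 and 3 and 4.65 to 5.29 on days 7 and 10, and fell by 0.91 (limma, adjusted p = 0.0333). Casp4, an inflammatory caspase, was at 5.78 to 6.40 and then 5.01 to 5.51, and fell by 0.87 (limma, adjusted p = 0.0425). Both calls were lost with cyclic loess (adjusted p = 0.0581 and 0.0828) and with the kind of graft as a covariate (adjusted p = 0.0599 and 0.0645). They were also lost without a single graft, other than PSI day 3 for both and PSI-F day 7 for Ripk3 (adjusted p = 0.0566 to 0.124). Between PSI-F and PSI none of the 61 was called, with a median of 0.06. Within a day 1 of the 61 was 2-fold apart, on day 1, where 0.853% of all probe sets were. It was Birc5 (survivin, an IAP protein of dividing cells), named here after its value was seen. Its levels were 5.51 in PSI and 4.22 in PSI-F on day 1 and 5.61 and 6.23 on day 3.

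**Figure D4:**
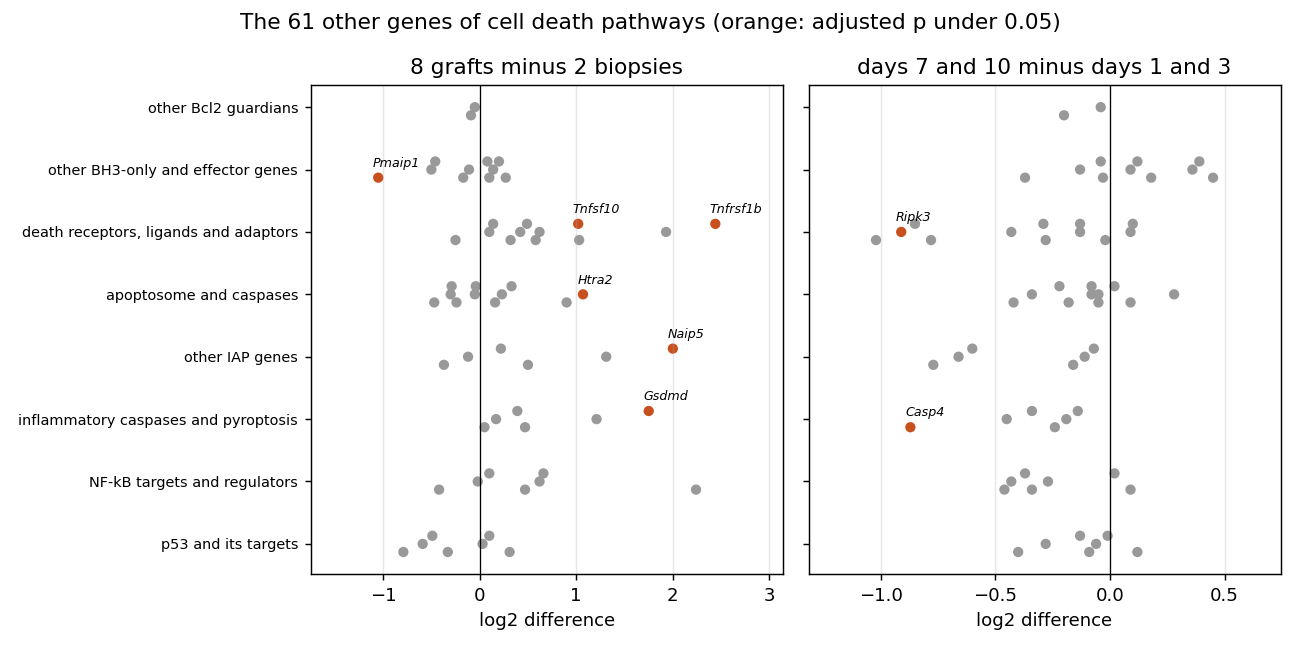
Log2 differences (brightest probe set) of 61 other genes of cell death pathways in 8 groups, for 8 grafts minus 2 biopsies on the left and days 7 and 10 minus days 1 and 3 on the right, with 1 point per gene. Orange points, which carry a name, have an adjusted p under 0.05 (limma): 5 higher and 1 lower in grafts against biopsies, and 2 lower late against early.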

How the data were processed

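RNA of 10 samples, 1 per condition, was hybridised to Affymetrix mouse genome arrays, on which a probe set is a group of short probes for 1 or more transcripts. The authors deposited log2 expression values per probe set made with RMA, which corrects background, makes the distributions of all arrays equal and summarises the probes. R 2.15.0 and affy 1.36.0 are listed in the processing notes of the submitters. RMA hides shifts shared by most genes, and values near the array median are mostly background. Samples with the best RNA quality had been chosen for the arrays.

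Genes were named only from probe sets with 1 symbol in GEO's platform annotation. The brightest probe set over the 10 arrays stood for a gene. Levels of 45037 probe sets (64 controls left out) were fitted with limma 3.58.1 (R 4.3.3), and p-values adjusted over all of them (Benjamini-Hochberg, threshold 0.05). The fits compared late with early grafts, grafts with biopsies, PSI-F with PSI (blocked by day), and their interaction with the period. With 1 array per condition, days and biopsies stood in for replicates. Within a day, 2-fold or more was counted, with no test. Each fit was tested on simulated data. Figures used matplotlib 3.10.9 under Python 3.11.15, with numpy 2.4.6 and pandas 2.3.3 for the tables.

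The members and lists were chosen with earlier results of these data known. The rule for named genes took all members with all their probe sets, up to 2 called genes of each pathway group and direction in each limma comparison, genes 4-fold apart within a day, and the 3 nearest genes of the 3 members with the widest range. Of the lists, 61 of 71 pathway genes and 86 of 96 cell type markers were matched. Beside those in the report, 10 adipocyte markers summed to a log2 level of 11.68 to 11.83 in the biopsies and 11.25 to 12.01 in the grafts (0 called). Of 10 islet markers, 1 (Ins2) was called higher in the grafts. The alternatives were cyclic loess on top of the deposited values, a filter on mean levels under 4, a trend in limma, the mean of a gene's probe sets, other blocks and covariates, a 4-fold threshold, grafts of days 1 and 3 alone, and leaving out each array or day.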

Additional observations from a re-analysis of the deposited data

How the results depend on the processing

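Of 471 values of the 9 genes and of the other called genes under the alternatives, 388 kept their direction and their side of the threshold, 56 kept the direction and lost the call, 9 gained a call and 18 turned in direction. Of the 9 genes' brightest probe sets, Bak1 was the one with lost calls (8). Most turns were of differences near 0. For PSI-F minus PSI these were Mcl1 (0.05 with cyclic loess, 0.08 with the mean of its probe sets, -0.04 to 0.03 without each day) and, without a day, Casp8 (-0.08 to 0.15), Cflar (-0.04 to 0.07) and Birc3 (-0.06 to 0.28). Late minus early, Bcl2l1 was -0.15 with the mean of its probe sets and -0.07 to 0.10 without each array, and Bak1 was -0.03 to 0.08 without each array. In grafts minus biopsies, Bcl2 was 0.02 and Mcl1 0.10, both with days 7 and 10 as a block and with grafts of days 1 and 3 alone, and Mcl1 was -0.49 to 0.27 without each array.

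Of the 9 genes, the number called in grafts minus biopsies, 1, became 0 with a trend, with the mean of the probe sets and with grafts of days 1 and 3 alone, 4 with days 7 and 10 as a block, and 0 to 4 without each array. The block left only the grafts of days 1 and 3 in the difference from the biopsies. Late minus early, the number of the 9 genes called rose from 0 to 3 with mean levels under 4 left out. Over all probe sets, the calls late minus early went from 407 to 133 with the mean of each gene's probe sets (fewer tests), 189 with the kind of graft as a covariate, and 31 (without PSI day 1) to 523 (without PSI day 3) when an array was left out. Those in grafts minus biopsies went from 975 to 482 with the mean of each gene's probe sets, 1626 with days 7 and 10 as a block, and 15 (without Diabetic) to 4371 (without Control). Leaving out a day gave 0 to 2 calls for PSI-F minus PSI. Probe sets 2-fold apart within days 1, 3, 7 and 10 numbered 384, 841, 619 and 250. There were 44, 177, 78 and 39 at 4-fold, 147, 435, 260 and 107 with 1 mean per gene, and 200, 498, 346 and 144 at mean levels of 4 or more. The cause of these shifts was not tested. Without Control or Diabetic the lone biopsy was assumed to vary like the grafts. PSI-F and PSI were paired by day, and without the day as a block 0 probe sets were called as well. The arrays carry no replicate numbers, so no other pairing was made. The number of arrays limits the precision, and dim probe sets were near background.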
